A study of Homo sapiens with 30 samples.

Results

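The genes described here encode the mitochondrial ribosomal proteins, taken as every symbol made of MRPL or MRPS, a number and at most a letter after it, with pseudogenes and antisense genes left out. The rule found 78 genes, 49 with an MRPL and 29 with an MRPS symbol, among the 60612 genes of the knockout count table and the 56303 of the overexpression and the knockdown tables. All 78 are protein coding and passed the filter on low counts in every comparison. Measured values played no part in the rule. Of them, 51 encode proteins of the large subunit and 26 of the small subunit. MRPS18A and MRPS30 are large subunit proteins in spite of their symbols, and MRPS36 (KGD4) encodes a component of the alpha-ketoglutarate dehydrogenase complex and no mitoribosome subunit.

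RNA-seq counts came from 30 libraries of 5637, a human bladder cancer cell line, in 10 groups of 3. The study asked how RBPMS, an RNA-binding protein, and the ANKRD10 transcripts act on these cells and on the MYC pathway. In the knockout experiment KO1 and KO2 carried RBPMS knockouts made with different sgRNAs and were compared with the wild type groups WT1 and WT2, respectively. The study's discussion names off-target cutting and genetic change gathered during single-clone expansion as limits of the knockout populations, and its figures call the same controls sgCtrl. In the overexpression experiment cells received a plasmid for either ANKRD10 splice form, ANKRD10-1 or ANKRD10-2, or Vector alone. In the knockdown experiment cells received siANKRD10-1, siANKRD10-2 or the control siNC. The labels name 5637 cells alone for these groups, while the text of the study places the ANKRD10-1 overexpression and the ANKRD10-2 knockdown in cells that had lost RBPMS. RBPMS read between 3.58 and 6.27 CPM (counts per 1000000 TMM-scaled counts) in all 18 of these libraries, and no comparison between these groups passed the edgeR test. Its log2 fold change was -0.19 ± 0.13 (SE) for ANKRD10-1 against Vector and 0.03 ± 0.14 for siANKRD10-2 against siNC. In KO1 and KO2 it was -1.44 and -1.09, and no fall of that size was seen between these groups and their controls. The counts did not settle which cells were used for a group and its control together. ANKRD10-1 and ANKRD10-2 share the Vector libraries, and siANKRD10-1 and siANKRD10-2 share the siNC libraries. Nothing states that the 3 libraries of a group are separate cultures, so p-values measure the spread between these libraries, which may be technical.

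Libraries held between 28511029 and 69723937 counts. RBPMS counts were lower in KO1 than in WT1 (log2 fold change -1.44) and in KO2 than in WT2 (-1.09), and ANKRD10 changed by -1.18 in KO1, -0.76 in KO2, 0.67 with ANKRD10-1, 0.41 with ANKRD10-2, -0.24 with siANKRD10-1 and -0.25 with siANKRD10-2, summed over its transcripts. Keratin genes, EPCAM and CDH1, markers of epithelial cells, were abundant, whereas UPK1B and UPK3A, markers of differentiated urothelium, were near 0. Within a group, no pair of libraries held the same counts.

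Mitochondria keep their own ribosome, which makes the few proteins encoded by mitochondrial DNA, all of them core parts of the respiratory chain and ATP synthase. Its ribosomal RNAs come from mitochondrial DNA, while all of its proteins are encoded in the nucleus, made in the cytosol and imported. Many of these proteins have a counterpart in the bacterial ribosome, and others were gained in the mitochondrial lineage. ETS factors such as GABP, together with NRF1 and YY1, are known regulators of nuclear genes for mitochondrial proteins, and MYC is known to raise many genes of ribosome and mitochondrial biogenesis through E-box sites.

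Promoter sequence was looked at first, because the study asked about the transcription factor MYC. RefSeq promoter windows (build GRCh38.p14, 250 bases before to 50 bases after the annotated start) matched 69 of the 78 genes, and MRPL10, MRPL13, MRPL15, MRPL2, MRPL21, MRPL23, MRPL35, MRPS28 and MRPS36 had no entry. The E-box CACGTG, which reads alike on both strands, stood in 8.7% of the 69 windows and in 7.4% of all 27305. The ETS motif CCGGAAG, searched on both strands, stood in 42.0% of the windows of these genes against 10.7% of all windows. The YY1 motif AAGATGG, searched on both strands, stood in 33.3% against 6.1%. Against the 12078 windows of genes tested in KO1 the shares were 18.3% for ETS, 7.2% for YY1 and 9.8% for the E-box. The NRF1 motif, searched as its usual palindrome, stood in 11.6% of these windows, with 11.1% among the tested genes. None of these motifs contains another, and a match is a description of letters, not a bound site.

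Most matches lay close to the start. Of 39 ETS matches 27 began within 50 bases of it, and of 24 YY1 matches 17 did, 16 of them at or after the start itself. Over all promoters 52.1% of ETS and 46.1% of YY1 matches began within that distance. An ETS or a YY1 match was found in 43 of the 69 windows, both in 9 and neither in 26.

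Stretches of 120 bases are printed for the 8 genes whose counts moved in the ways described further on: the 6 that were higher in both knockouts and with ANKRD10-2 and lower with siANKRD10-2, then MRPS18A, which fell with both ANKRD10-2 and siANKRD10-2, and MRPL48, which rose most with siANKRD10-2. Capitals mark matches to the 4 motifs, and each stretch is written 5′ to 3′ on the strand of its gene. It runs from 100 bases before the start to 19 after it, except for MRPL32 and MRPL37, whose stretches end 121 and 81 bases before the start. Those stretches were placed further upstream to include the YY1 match of MRPL32 and the E-box of MRPL37. From 100 bases before the start to 19 after it, neither gene held any of the 4 motifs. In order, the stretches are chr17:81703267-81703386, plus strand, chr7:42932136-42932255, plus strand, chr1:54199967-54200086, plus strand, chr14:22829787-22829906, plus strand, chr3:139343894-139344013, plus strand, chr17:57850025-57850144, minus strand, chr6:43687772-43687891, minus strand, and chr11:73787774-73787893, plus strand.
MRPL12: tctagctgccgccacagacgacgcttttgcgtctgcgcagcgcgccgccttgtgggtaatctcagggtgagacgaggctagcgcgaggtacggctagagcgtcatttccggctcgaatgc
MRPL32: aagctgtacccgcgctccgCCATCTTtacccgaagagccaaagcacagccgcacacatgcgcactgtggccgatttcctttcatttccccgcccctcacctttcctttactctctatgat
MRPL37: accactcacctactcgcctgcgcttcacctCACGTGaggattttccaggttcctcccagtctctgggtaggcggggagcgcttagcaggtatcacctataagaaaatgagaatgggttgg
MRPL52: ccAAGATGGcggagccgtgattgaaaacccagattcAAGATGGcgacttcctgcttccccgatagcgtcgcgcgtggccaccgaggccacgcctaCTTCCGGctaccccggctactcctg
MRPS22: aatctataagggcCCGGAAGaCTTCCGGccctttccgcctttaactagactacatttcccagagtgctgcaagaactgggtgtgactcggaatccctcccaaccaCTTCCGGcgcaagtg
MRPS23: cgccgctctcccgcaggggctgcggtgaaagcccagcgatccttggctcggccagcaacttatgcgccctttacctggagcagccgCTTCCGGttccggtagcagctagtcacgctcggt
MRPS18A: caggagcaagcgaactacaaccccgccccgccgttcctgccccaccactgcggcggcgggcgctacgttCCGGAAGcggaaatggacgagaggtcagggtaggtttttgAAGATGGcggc
MRPL48: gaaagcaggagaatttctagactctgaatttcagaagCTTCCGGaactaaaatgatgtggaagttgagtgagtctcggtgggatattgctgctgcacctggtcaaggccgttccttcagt

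The MRPL12 stretch holds none of the 4 motifs in these letters. MRPS22 holds 3 ETS matches, MRPL52 holds 1 ETS and 2 YY1 matches, and MRPL37 alone of these 8 holds an E-box, in a stretch placed to include it. Of the 26 windows of genes higher in both knockouts 53.8% held an ETS match, and of the 13 windows of genes called in neither 30.8% did, whereas for YY1 the shares were 26.9% and 53.8%. These are counts over few windows, given without a test.

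Levels are given per length, as RPKM (CPM divided by the length of the gene model in kilobases), since counts also follow length. In WT1 the 78 genes ranged from 1.93 RPKM for MRPL46 to 76.8 for MRPL12, with a median of 13.6. MRPL12 (76.8 ± 3.59 RPKM, SD, n = 3), which also binds the mitochondrial RNA polymerase, stood highest, followed by MRPL15 (53.7 ± 3.48), MRPL3 (49.1 ± 2.08), MRPL51 and MRPL45 (44.9 ± 2.82), the last pair within each other's spread. At the low end were MRPL23 (4.94 ± 0.326 RPKM), MRPS18C (4.90 ± 0.467), MRPL42 (4.76 ± 0.224), MRPS11 (4.09 ± 0.211) and MRPL46 (1.93 ± 0.208), where MRPL23, MRPS18C and MRPL42 did not differ beyond their spread. Ranks at this low end depend on the gene model, which holds 16393 bases for MRPL42 and 6432 for MRPL46. Their transcripts hold 701 and 1019 bases. In CPM, MRPL42 read from 74.35 to 81.67 in WT1, which overlaps MRPL12 at 76.01 to 83.08. Low RPKM of these genes is therefore no evidence of few transcripts, and ranks by transcript length were not computed. The median was 7.32 RPKM in Vector and 11.7 in siNC, but the 3 tables were counted separately, so levels were compared only within a table.

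The counts of MRPL12 carry a limit. It shares 68.2% of its exon bases with RP13-1032I1.10 on the same strand, and in the 18 overexpression and knockdown libraries that gene held from 1.03 to 1.08 times the counts of MRPL12, so that the counts of the pair cannot be told apart. MRPS28, MRPL38, MRPS17, MRPS24 and MRPL33 share from 21.1 to 37.5% of their exon bases in the same way. On the opposite strand, 29 of the 78 genes share exon bases with another gene, among them MRPL32, MRPL37, MRPS22 and MRPS18A. The strand setting of the counting is not given, so whether reads from the opposite strand entered their counts is not known. GENCODE 29 lists pseudogenes for 34 of the 78 genes, 75 in all, and how reads matching both were shared was not given in the sources used here.

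Together the 78 genes took 0.321 to 0.328% of all counts in WT1 and 0.375 to 0.391% in KO1, and 0.309 to 0.325% in WT2 against 0.346 to 0.355% in KO2. Every knockout library therefore lay above every wild type library. The share was 0.234 to 0.237% in Vector, 0.240 to 0.244% with ANKRD10-1 and 0.239 to 0.250% with ANKRD10-2. Both overexpression groups lay above Vector, by far less than the knockouts lay above their controls. It was 0.298 to 0.306% in siNC, 0.327 to 0.345% with siANKRD10-1 and 0.294 to 0.295% with siANKRD10-2, so siANKRD10-1 lay above siNC and siANKRD10-2 below it without overlap. In bulk samples less RNA per cell and fewer cells of a kind cannot be told apart.

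**Figure D1:**
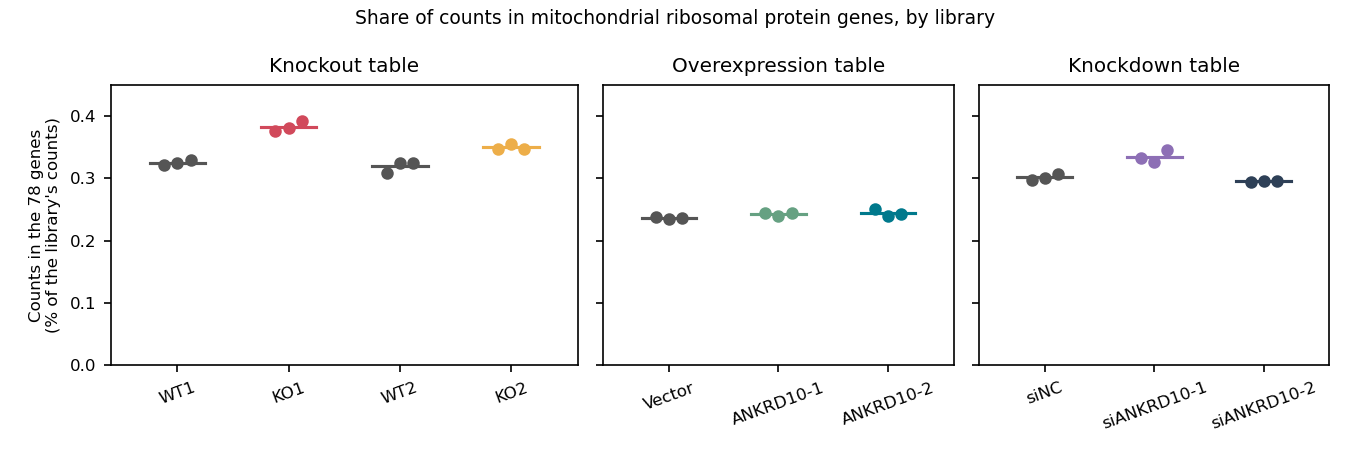
Counts in the 78 genes as a percentage of all counts of the library (y axis) for the 10 groups (x axis), 1 point per library with the group mean as a bar. KO1 libraries lie at 0.375 to 0.391% and WT1 libraries at 0.321 to 0.328%.

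In KO1, 50 of the 78 genes were called higher and 3 lower than in WT1 (edgeR quasi-likelihood test, adjusted p under 0.05), while 17.9% of all genes tested were called higher and 18.2% lower. The median log2 fold change of the 78 genes was 0.25, against a median of all genes near 0, and 72 of them lay above 0. Among genes above 4 on the log2 CPM scale, 28.2% were called higher and 21.5% lower, and of the 71 of the 78 that lay there 49 were called higher and 2 lower. The rise ran through the whole particle: 34 of 51 large subunit and 16 of 26 small subunit genes rose, 32 of the 46 with a bacterial counterpart and 18 of the 31 without.

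MRPL24, a large subunit protein of the tunnel exit region, read 19.9, 20.7 and 18.96 CPM in WT1 and 30.7, 32.4 and 29.4 in KO1. Its log2 fold change was 0.63 ± 0.07 (SE, edgeR adjusted p = 6.67e-05). MRPL41 read 14.7, 13.2 and 12.2 in WT1 and 22.9, 17.3 and 20.96 in KO1, a log2 fold change of 0.61 ± 0.11 (SE, edgeR adjusted p = 0.0017). In both genes all 3 knockout libraries stood above all 3 wild type libraries. Here and below, the leading rises and falls against a control were picked among called genes whose groups did not overlap. Their separation follows from that choice, and its share over all genes was not counted. MRPL12 read 83.1, 77.7 and 76.01 in WT1 and 115, 119.2 and 124 in KO1, a log2 fold change of 0.60 ± 0.05 (SE, edgeR adjusted p = 1.32e-05). MRPS18B, a small subunit protein, read 34.2, 37.8 and 37.4 in WT1 and 52.6, 50.5 and 53.9 in KO1, a log2 fold change of 0.52 ± 0.06 (SE, edgeR adjusted p = 8.33e-05). For these 2 genes as well the groups did not overlap. Lower counts were called for MRPS6 (-0.39 ± 0.08), MRPL54 (-0.29 ± 0.09) and MRPS14 (-0.23 ± 0.07), the last with 26.97, 28.3 and 28.5 CPM in WT1 and 23.1, 24.3 and 24.3 in KO1.

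In KO2, 39 of the 78 genes were called higher and 2 lower than in WT2, where 19.3% of all genes were called higher and 19.2% lower. The median log2 fold change was 0.17, and 70 genes lay above 0. Above 4 on the log2 CPM scale 36 of 71 were called higher and 2 lower, against 31.2% and 22.9% of all genes there. Of the large subunit genes 28 of 51 rose and of the small subunit genes 11 of 26. MRPL53 rose most, with 7.57, 6.30 and 5.54 CPM in WT2 and 11.4, 10.7 and 10.1 in KO2 and a log2 fold change of 0.73 ± 0.13 (SE, edgeR adjusted p = 0.000899), and it shares 45.2% of its exon bases with CCDC142 on the same strand, so its counts are uncertain. MRPL41 (11.8, 12.1 and 12.7 in WT2, 16.7, 16.7 and 19.3 in KO2) rose by 0.53 ± 0.09 on the log2 scale. MRPL28 rose from 30.6, 32.3 and 32.3 in WT2 to 43.9, 49.1 and 43.3 in KO2 (0.51 ± 0.06). MRPL4 rose from 40.2, 46.99 and 44.1 in WT2 to 62.3, 64.6 and 60.6 in KO2 (0.51 ± 0.06). In each of these genes the lowest KO2 library stood above the highest WT2 library, as the choice of leading genes required. MRPL50 fell from 42.1, 45.9 and 47.1 to 31.7, 32.6 and 32.3, a log2 fold change of -0.49 ± 0.06 (SE, edgeR adjusted p = 2.54e-05), and MRPS21 fell from 52.9, 55.04 and 58.2 to 48.8, 48.2 and 48.6, -0.19 ± 0.05 (SE, edgeR adjusted p = 0.00797). Between the controls, WT2 against WT1, 0 of the 78 genes were called higher and 0 lower by edgeR (4 and 6 at an unadjusted p under 0.05, 0 and 0 by DESeq2), with 0.578% of all genes higher and 0.654% lower, and the median was -0.03.

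The knockouts had separate controls, and 30 genes were called higher in both, 0 were called lower in both by edgeR (0 at an unadjusted p under 0.05) and 2 were called in opposite directions. Over the 13304 genes tested in KO1, in KO2, with ANKRD10-2 and with siANKRD10-2, each against its control, 11.6% were higher in both knockouts and 9.42% lower in both. These shares were not computed above 4 on the log2 CPM scale, where larger shares of all genes were called in KO1 and in KO2. By the smaller of both changes the leading genes were MRPL41, MRPL28 (0.50 in KO1, 0.51 in KO2), MRPL12 (0.60 and 0.44), MRPL40 (0.45 and 0.34) and MRPL33 (0.32 and 0.37), all of the large subunit. A further 21 genes were called in KO1 alone, 9 in KO2 alone and 16 in neither, and 65 lay above 0 in both. These patterns and the opposite calls were not counted over all genes.

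The 2 genes called in opposite directions, MRPS6 and MRPL54, lay on chromosomes whose genes moved together in KO1. In KO1 the median log2 fold change of all tested genes was -0.38 on chromosome 19 and -0.27 on chromosome 21, and in KO2 it was -0.41 on chromosome 9 and -0.17 on chromosome 13. MRPS6 on chromosome 21 fell in KO1 (44.6, 44.5 and 50.7 to 37.1, 32.2 and 37.6 CPM, -0.39) and rose in KO2 (44.04, 47.9 and 44.5 to 46.8, 57.04 and 53.9, 0.20), where the lowest KO2 library lay among the WT2 libraries, while the tested genes within 5 Mb of it had medians of -0.22 and 0.09. MRPL54 on chromosome 19 changed by -0.29 and 0.24, the second call being lost under DESeq2, with neighbours at -0.45 and 0.10. MRPL50 on chromosome 9 changed by -0.49 in KO2 and its neighbours by -0.49, whereas MRPL41, on the same chromosome, rose by 0.53 beside neighbours at -0.24. Of the 6 genes on chromosomes 19 and 21, none was called higher in KO1 by edgeR, with medians over these 6 of -0.11, and of the 72 others 50 were, with 1 lower. Less the median of its neighbours, 76 of the 78 genes lay above 0 in KO1 and 66 in KO2, with medians of 0.24 and 0.14. The part of these chromosomes in the calls was not tested.

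Tested directly, the log2 fold change was higher in KO1 than in KO2 for 15 genes and lower for 5, where 11.2% and 12.1% of all genes were so called, and the median difference was 0.11. The largest positive differences were in MRPL50 (0.70 ± 0.10, SE, edgeR adjusted p = 0.000113), MRPS25 (0.47 ± 0.12) and MRPS33 (0.46 ± 0.11). MRPL50 had neighbours at a median difference of 0.46. MRPS25 and MRPS33 lie on chromosomes 3 and 7, with neighbours at 0.04 and -0.04. MRPS25 read 28.1, 28.9 and 27.2 in WT1, 41.4, 35.1 and 34.5 in KO1, 33.4, 30.9 and 27.2 in WT2 and 31.04, 28.3 and 27.5 in KO2, so KO1 stood apart from its control and KO2 overlapped it. The largest negative differences were in MRPS12 (-0.62 ± 0.12, SE, edgeR adjusted p = 0.00126), MRPS6 (-0.60 ± 0.11) and MRPL4 (-0.58 ± 0.11), which lie on chromosomes 19 and 21. Less the median of their neighbours these differences were -0.13, -0.23 and -0.37. MRPS12 rose in KO2 from 18.7, 18.98 and 17.5 to 23.8, 26.3 and 25.9 and read 20.5, 21.96 and 20.6 in WT1 against 16.8, 18.3 and 21.4 in KO1, where the groups overlap.

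With ANKRD10-1 overexpression 5 genes were called higher and 0 lower than in Vector by edgeR, with 21 and 1 at an unadjusted p under 0.05 and 8 and 0 by DESeq2, where 3.5% of all genes were higher and 2.81% lower. The median log2 fold change was 0.10. With ANKRD10-2 overexpression 14 were called higher and 2 lower, with 10.7% and 9.25% of all genes, and the median was 0.12. Above 4 on the log2 CPM scale 4 of 47 were called higher with ANKRD10-1 and 11 of 47 with ANKRD10-2, against 7.7% and 21.5% of all genes there, so neither count stood apart from that background. Both comparisons use the same Vector libraries. The ANKRD10-1 count lay between 2 and 8 and the ANKRD10-2 count between 8 and 15 when a library was left out, the lowest without Vector replicate 1 or ANKRD10-1 replicate 2 for ANKRD10-1 and without Vector replicate 2 or ANKRD10-2 replicate 1 for ANKRD10-2.

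MRPL18, which also helps carry 5S ribosomal RNA, read 26.3, 25.6 and 26.8 CPM in Vector, 34.8, 34.1 and 36.6 with ANKRD10-1 and 39.6, 36.01 and 36.3 with ANKRD10-2. Its log2 fold changes were 0.42 ± 0.06 (SE, edgeR adjusted p = 0.00019) and 0.51 ± 0.06 (SE, edgeR adjusted p = 8.5e-05). MRPL44 read 11.3, 10.3 and 10.1 in Vector, 14.3, 14.1 and 13.7 with ANKRD10-1 and 14.96, 12.2 and 13.7 with ANKRD10-2, changes of 0.41 ± 0.08 and 0.37 ± 0.09. Neither gene had a Vector library as high as the lowest library with either plasmid, as the choice of leading genes required. Also higher with ANKRD10-1 were MRPS31 (0.22 ± 0.06) and MRPS9 (0.21 ± 0.05), and with ANKRD10-2 MRPL24 (0.36 ± 0.09) and MRPL52 (0.34 ± 0.05). The genes called lower with ANKRD10-2 were MRPS18A and MRPS7, the latter at 28.2, 27.5 and 28.7 in Vector and 24.1, 22.9 and 24.7 with ANKRD10-2, -0.24 ± 0.06 (SE, edgeR adjusted p = 0.0191). Compared directly, 1 gene was higher and 2 were lower with ANKRD10-2 than with ANKRD10-1, where 4.15% and 3.1% of all genes were so called. Both counts lay below the share over all genes. The genes were MRPS6 (0.26 ± 0.05, SE, edgeR adjusted p = 0.00548), MRPS18A (-0.37 ± 0.07) and MRPL38 (-0.22 ± 0.06).

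Knockdown with siANKRD10-1 left 16 genes called higher and 1 lower than in siNC, where 5.08% of all genes were higher and 5.52% lower, and the median log2 fold change was 0.15. With siANKRD10-2, 9 were called higher and 30 lower, where 17.6% and 18.7% of all genes were, and the median was -0.14. Above 4 on the log2 CPM scale 14 of 60 were higher with siANKRD10-1, against 9.1% of all genes there, and 24 of 59 were lower with siANKRD10-2, against 28.9%. Both comparisons use the same siNC libraries, so siANKRD10-2 was also set directly against siANKRD10-1. There 42 genes were lower and 5 higher, where 18.8% and 18.2% of all genes were, and the median was -0.27, with 67 of 78 below 0. Of the 51 large subunit genes 30 were lower, and of the 26 small subunit genes 11. The siANKRD10-1 count rested on single libraries: without siNC replicate 2 it was 3, and without siANKRD10-1 replicate 2 it was 26.

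MRPL12 fell furthest with siANKRD10-2, from 64.7, 65.7 and 69.8 CPM in siNC to 38.1, 37.4 and 38.95, while siANKRD10-1 libraries read 75.3, 69.1 and 73.8. Its log2 fold change against siNC was -0.81 ± 0.06 (SE, edgeR adjusted p = 4.11e-11), and against siANKRD10-1 -0.93 ± 0.06. The siANKRD10-2 libraries lay far below all 6 others. MRPL54 read 8.58, 9.62 and 8.28 in siNC and 4.93, 5.56 and 4.88 with siANKRD10-2 (-0.79 ± 0.12), MRPL22 read 24.4, 26.6 and 28.2 and 15.5, 18.7 and 18.1 (-0.60 ± 0.08), and MRPL23 read 7.67, 8.63 and 8.59 and 5.62, 5.84 and 5.13 (-0.59 ± 0.12). No siANKRD10-2 library of these genes overlapped siNC, as the choice of leading genes required, and none of them was called with siANKRD10-1. Against the general fall MRPL48 rose with siANKRD10-2, from 56.4, 53.3 and 59.7 to 86.8, 88.1 and 94.6, 0.67 ± 0.06 (SE, edgeR adjusted p = 1.36e-09). MRPS25 (0.50 ± 0.08), MRPS18C (0.44 ± 0.06) and MRPS10 (0.42 ± 0.06) rose as well. Higher with siANKRD10-1 were MRPS25 (0.44 ± 0.07), MRPS33 (0.42 ± 0.07), MRPS30 (0.37 ± 0.09) and MRPL40 (0.35 ± 0.07), and the only gene lower was MRPL37 (-0.36 ± 0.09). In the direct contrast the leading genes were MRPL54 (-0.80 ± 0.12) and MRPL23 (-0.78 ± 0.11) downward after MRPL12, and MRPL48 (0.41 ± 0.06), MRPS11 (0.28 ± 0.06) and MRPS18C (0.27 ± 0.06) upward.

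The genes called higher in both knockouts and with ANKRD10-2 and lower with siANKRD10-2 were MRPL12, MRPL32, MRPL37 and MRPL52 of the large subunit and MRPS22 and MRPS23 of the small subunit. That is 6 of 78, against 1.59% of those 13304 genes. The mirror image was shown by 0 of the 78, but it was not counted over all genes, so this 0 has no background. In knockouts and siANKRD10-2 alone, 15 of the 78 were higher in both knockouts and lower with the siRNA, against 4.4%. Neither background share was computed above 4 on the log2 CPM scale, where larger shares of all genes were called in each of these comparisons. Both may therefore be too low for genes as abundant as most of the 78. MRPS22 read 41.6, 43.4 and 45.9 in WT1 and 53.5, 59.2 and 58.1 in KO1, 40.2, 41.02 and 42.3 in WT2 and 49.9, 47.6 and 48.3 in KO2. It read 48.9, 50.6 and 51.7 in Vector and 59.3, 58.5 and 59.1 with ANKRD10-2, and 61.9, 67.4 and 65.3 in siNC and 55.4, 53.1 and 58.5 with siANKRD10-2. No treated library of MRPS22 overlapped its control in any of these 4 comparisons. Its log2 fold changes were 0.38 ± 0.06, 0.23 ± 0.05, 0.23 ± 0.05 and -0.22 ± 0.06 in that order. MRPS23 was the only gene called in all 6 comparisons: 0.31 in KO1, 0.22 in KO2, 0.19 with ANKRD10-1, 0.21 with ANKRD10-2, 0.25 with siANKRD10-1 and -0.27 with siANKRD10-2. MRPL12 changed by 0.27 with ANKRD10-2 (edgeR adjusted p = 0.0385). Under DESeq2 the ANKRD10-2 call of MRPL12 and both knockout calls of MRPL52 were lost, with log2 fold changes of 0.27, 0.23 and 0.19. The log2 fold changes of MYC were 0.42 in KO1, 0.17 in KO2, 0.16 with ANKRD10-1, 0.55 with ANKRD10-2, 0.08 with siANKRD10-1 and -0.60 with siANKRD10-2, of which those with ANKRD10-1 and siANKRD10-1 did not pass the test.

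MRPS23 read 63.7, 65.6 and 62.1 CPM in WT1, 72.5, 80.99 and 83.8 in KO1, 56.5, 59.3 and 62.5 in WT2 and 69.3, 70.6 and 69.01 in KO2. In the other tables it read 46.2, 48.6 and 49.2 in Vector, 53.4, 53.1 and 57.2 with ANKRD10-1, 57.6, 52.3 and 56.03 with ANKRD10-2, 97.4, 103.7 and 120.4 in siNC, 123, 127 and 132 with siANKRD10-1 and 87.3, 88.8 and 90.95 with siANKRD10-2. Treated and control libraries of MRPS23 were apart in all 6 comparisons, with siANKRD10-1 above siNC and siANKRD10-2 below it. MRPL37, a large subunit protein without a bacterial counterpart, read 20.6, 19.7 and 19.96 in siNC, 15.6, 13.9 and 17.4 with siANKRD10-1 and 14.7, 18.1 and 16.1 with siANKRD10-2, so both siRNA groups lay below the control. Its log2 fold changes were 0.38 ± 0.06 in KO1, 0.28 ± 0.05 in KO2, 0.32 ± 0.09 with ANKRD10-2 and -0.30 ± 0.08 with siANKRD10-2. MRPL32 changed by 0.26 ± 0.07, 0.24 ± 0.05, 0.20 ± 0.06 and -0.39 ± 0.06 in the same order, and MRPL52 by 0.23 ± 0.08, 0.19 ± 0.07, 0.34 ± 0.05 and -0.33 ± 0.07. Neither overlapped its control in any of these 4 comparisons.

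**Figure D2:**
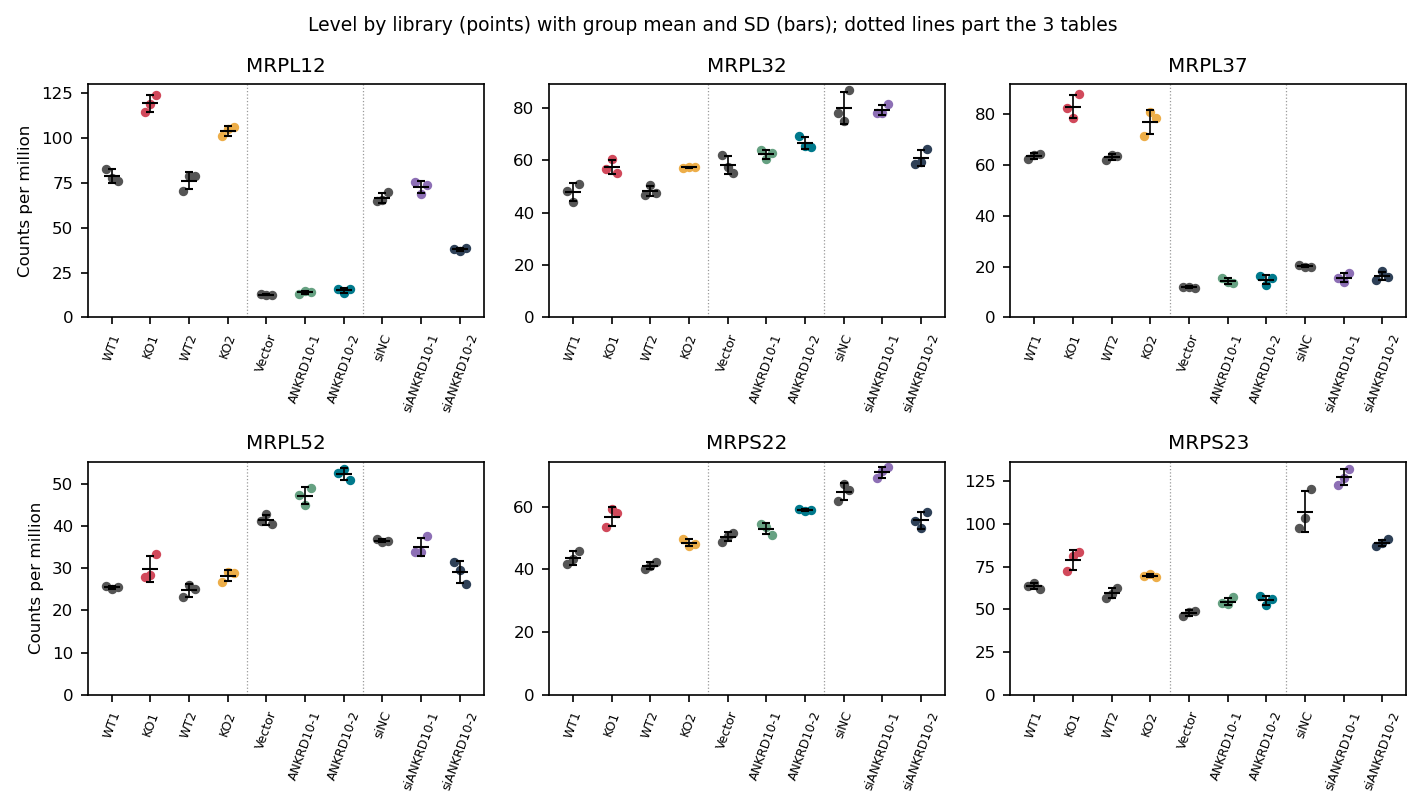
CPM (y axis) in every library of the 10 groups (x axis) for MRPL12, MRPL32, MRPL37, MRPL52, MRPS22 and MRPS23, as points with the group mean and SD. In each panel the knockout libraries lie above their wild type libraries, and the siANKRD10-2 libraries lie below the siNC libraries.

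MRPS18A, MRPS18B and MRPS18C are relatives of bacterial S18. MRPS18A sits in the large subunit and MRPS18B and MRPS18C in the small subunit. MRPS18A read 23.2, 22.1 and 21.96 in Vector, 21.96, 20.3 and 19.96 with ANKRD10-1 and 17.1, 15.6 and 15.7 with ANKRD10-2, and 31.1, 32.9 and 32.9 in siNC against 21.4, 23.2 and 23.8 with siANKRD10-2. It thus fell by 0.48 with ANKRD10-2 (edgeR adjusted p = 0.000422) and by 0.50 with siANKRD10-2 (edgeR adjusted p = 2.29e-06) on the log2 scale. MRPS18C changed by 0.39, 0.20 and 0.44 in KO1, KO2 and siANKRD10-2, all called. MRPS18B passed the test only in KO1, at 0.52, and its log2 fold change was higher in KO1 than in KO2 (0.43 ± 0.09, SE, edgeR adjusted p = 0.00224). MRPL9, a large subunit protein, rose in KO1 (0.25) and KO2 (0.15) and was not called with either plasmid or siRNA. MRPL23 passed the test with siANKRD10-2 and in no other of the 6 comparisons. MRPL36, MRPL42, MRPS5 and MRPS27 were called in none of the 6 by edgeR, with log2 fold changes from -0.08 to 0.38.

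**Figure D3:**
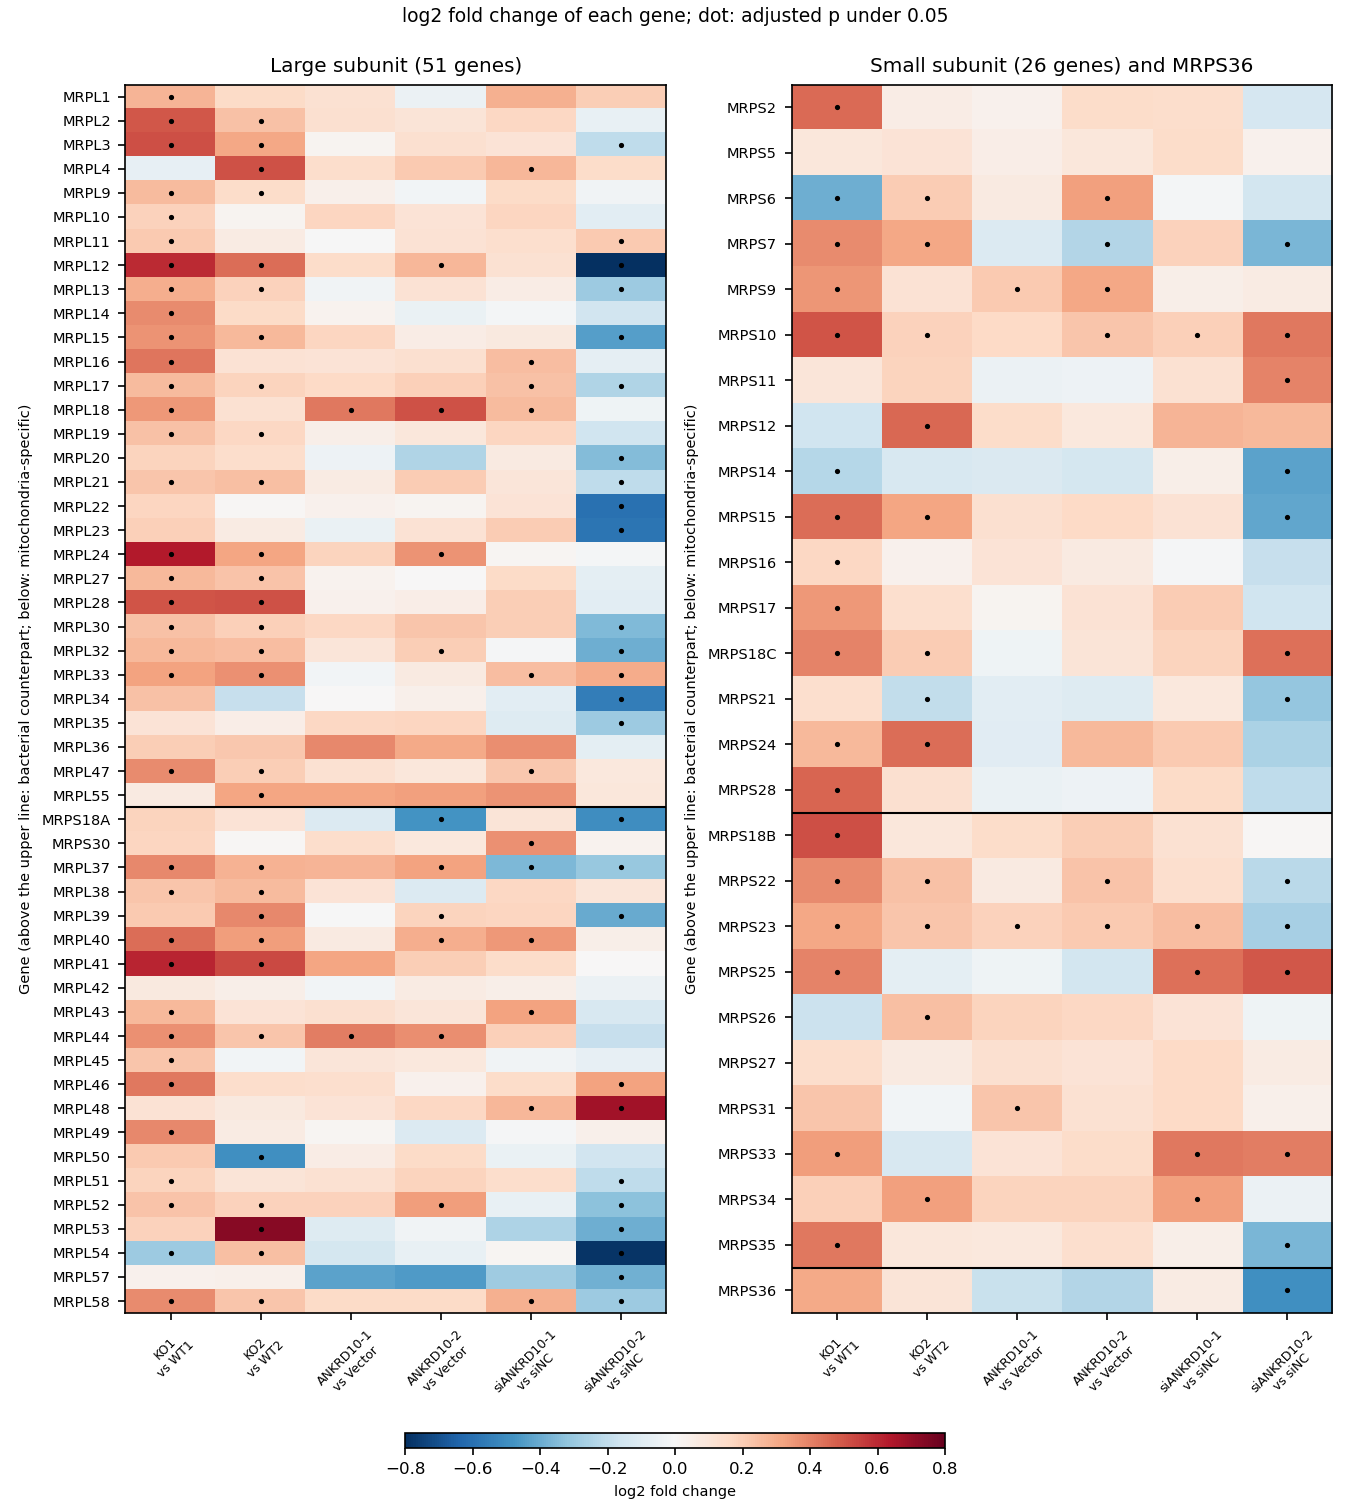
log2 fold change of the 78 genes (rows, by subunit and by whether a bacterial counterpart exists) in the 6 comparisons with a control (columns). Red is higher and blue lower, colours end at 0.8 on either side, and a dot marks an edgeR adjusted p under 0.05. The KO1 and KO2 columns are mostly red with 50 and 39 genes called higher, and the siANKRD10-2 column mixes 30 lower with 9 higher.

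Over the 78 genes the KO2 change went with the GC content of the transcript (Pearson r = 0.44, Spearman rho = 0.40), and over 13350 genes r was 0.12. It also went with log2 transcript length (r = -0.32, rho = -0.31, and r = -0.07 over the same genes), the shorter transcripts lying higher. With siANKRD10-2 the change went with length in the other direction (r = 0.29, rho = 0.24, and r = 0.08 over 13185 genes), the shorter transcripts lying lower. In KO1 r over the 78 genes was -0.015 with GC content and 0.059 with length. With ANKRD10-1, ANKRD10-2 and siANKRD10-1, r lay between -0.076 and 0.123 for both. These points share libraries and are no independent replicates. Transcripts of these genes are short, with a median of 1378.5 bases against 3099 for the genes tested in KO1. Less the trend with gene length and expression over all genes, the medians of the 78 genes were 0.18 in KO1, 0.11 in KO2 and -0.19 for siANKRD10-2 against siANKRD10-1, each in the same direction and smaller.

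Other genes of mitochondrial protein synthesis came from lists chosen by function, and their counts are to be read beside the shares of all genes given above for each comparison. DAP3, PTCD3, CHCHD1, AURKAIP1 and GADD45GIP1 encode mitoribosome proteins under other symbols, and of these 5 genes 2 rose in KO1 and 3 in KO2, led by DAP3, which is also linked to apoptosis (0.41 and 0.42) and AURKAIP1 (0.36 and 0.39), with 0 lower by edgeR, also at an unadjusted p under 0.05. Of 12 mitochondrial translation factors 7 rose in KO1 and 0 fell by edgeR (0 at an unadjusted p under 0.05), and 6 rose and 2 fell in KO2. TACO1, an activator of COX1 translation, rose by 0.55 in KO1, and TSFM, the elongation factor partner of TUFM, by 0.51 in KO2. Of 28 assembly factors 14 rose in KO1 and 0 fell by edgeR (1 at an unadjusted p under 0.05), led by the helicase DDX28 (0.60), and in KO2 8 rose and 4 fell, against 19.3% higher and 19.2% lower over all genes. With ANKRD10-2 4 assembly factors fell and 0 rose by edgeR (4 at an unadjusted p under 0.05), DDX28 among them (-0.59). Of 12 genes of mitochondrial transcription and RNA handling 9 rose and 1 fell in KO1, with SLIRP at 0.69 the RNA decay enzyme PNPT1 at 0.58 and, falling, the RNA polymerase POLRMT at -0.37. With siANKRD10-2, 2 of the 11 tested rose and 7 fell, including TFAM, which packages mitochondrial DNA (-0.47). Of 10 regulators of mitochondrial biogenesis 6 rose and 1 fell in KO1, with GABPA, an ETS subunit, at -0.25, and 2 rose and 2 fell in KO2, with PPRC1 at 0.34 and YY1 at -0.12, which is the background share of 19.3% and 19.2% and no result about the list. GABPA lies on chromosome 21 and POLRMT on chromosome 19, where the KO1 medians of all tested genes were -0.27 and -0.38. The part of these chromosomes in both falls was not tested. PPARGC1A was called in opposite directions, at 1.13 ± 0.26 in KO1 (SE, edgeR adjusted p = 0.00593) and -3.48 ± 0.92 in KO2 (SE, edgeR adjusted p = 0.0101). These errors lie far above the median SE of the 78 genes, 0.0728 in KO1 and 0.0616 in KO2. List genes had to meet no minimum mean count, and the counts of PPARGC1A are not given here, so its values are uncertain.

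Of the 15 genes tested on mitochondrial DNA, 1 rose and 1 fell in KO1, 0 rose (0 at an unadjusted p under 0.05, edgeR) and 12 fell in KO2 (median -0.23). With ANKRD10-2, 7 fell (median -0.07) and 0 rose by edgeR (0 at an unadjusted p under 0.05), and with siANKRD10-2, 2 rose and 11 fell (median -0.42), so falls were called under overexpression and under knockdown alike. MT-RNR1, the small ribosomal RNA, changed by -0.76 in KO2, and MT-RNR2, the large ribosomal RNA, by -0.33 in KO1, -0.53 in KO2 and 0.85 with siANKRD10-2, although libraries made from poly(A) RNA measure ribosomal RNA poorly. Counts of mitochondrial DNA genes made up 6.05 to 6.71% of KO2 libraries against 7.38 to 7.84% in WT2, 7.59 to 7.75% with ANKRD10-2 against 8.47 to 8.66% in Vector, and 8.92 to 10.5% with siANKRD10-2 against 12 to 13.8% in siNC. Of 83 cytosolic ribosomal protein genes tested, 42 rose and 10 fell in KO1 and 5 rose and 13 fell in KO2. With ANKRD10-1, 41 rose, and with ANKRD10-2, 66 rose (median 0.27), and 0 fell with either by edgeR, also at an unadjusted p under 0.05. With siANKRD10-2, 1 rose and 64 fell (median -0.38). Side by side, 66 of 83 cytosolic and 14 of 78 mitochondrial genes rose with ANKRD10-2, and 5 of 83 and 39 of 78 rose in KO2, without a test of the difference.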

How the data were processed

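RNA from 5637 cells was sequenced in 30 libraries, in 10 groups of 3 taken from the labels. The authors deposited whole-number read counts per gene, 1 table for each of the 3 experiments. The submitters' processing notes name Trimmomatic 0.36, featureCounts, Subread 1.5.1 and the GRCh38 build, and the study's methods name HISAT2, StringTie and DESeq2. The annotation release and the strand setting of the counting are not given in the sources used here. CPM and RPKM were computed here from the deposited counts.

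Each comparison was fitted on all genes of its table with edgeR 4.0.16 in R 4.3.3, using TMM normalization, filterByExpr (minimum count 10, minimum total 15) and the quasi-likelihood test, p-values adjusted by Benjamini and Hochberg's method across the whole fit, and a threshold of 0.05. Only the groups of a comparison entered its fit, and 1 contrast over WT1, KO1, WT2 and KO2 tested whether KO1 and KO2 changed differently. The script was tested on simulated data. DESeq2 1.42.0, other normalizations, no filter, a replicate block, pooled controls and leaving out each library were tried as alternatives.

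The members and lists were chosen with earlier results of these data known. Genes were named by rule: up to 4 rises and 4 falls per comparison among called genes whose groups did not overlap and whose mean was at least 50 raw counts (up to 3 for direct contrasts), the 5 leading genes shared by the knockouts, genes called in opposite directions, in all or in none of the 6 comparisons with a control, the reciprocal genes, the 5 highest and 5 lowest in WT1, the MRPS18 genes, MRPL12, MRPL9 and MRPL23, and up to 2 called genes in each direction per list. The conditions on overlap and mean count were not applied to list genes or to the difference between the knockouts. Promoter sequences came from RefSeq (GRCh38.p14), and overlaps and pseudogenes from GENCODE 29. No table of protein sequences was used here.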

Additional observations from a re-analysis of the deposited data

Results flagged for a closer look

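The effects below differed between groups by a test of the difference itself, an edgeR contrast with an adjusted p under 0.05. Between the knockouts, 15 of the 78 genes had a higher log2 fold change in KO1 than in KO2 and 5 a lower value, where 11.2% and 12.1% of all genes did. The differences in log2 fold change were 0.70 in MRPL50, 0.47 in MRPS25 and 0.46 in MRPS33 on the positive side, and -0.62 in MRPS12, -0.60 in MRPS6 and -0.58 in MRPL4 on the negative side. The median log2 fold change in KO2 of the tested genes on chromosome 9, which holds MRPL50, was -0.41.

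Between the overexpressed forms, 1 gene was higher and 2 were lower with ANKRD10-2 than with ANKRD10-1, below the 4.15% and 3.1% of all genes, with log2 fold changes of 0.26 in MRPS6, -0.37 in MRPS18A and -0.22 in MRPL38. Between the siRNAs, 5 genes were higher and 42 lower with siANKRD10-2 than with siANKRD10-1, against 18.2% and 18.8% of all genes. The log2 fold changes were 0.41 in MRPL48, 0.28 in MRPS11 and 0.27 in MRPS18C upward, and -0.93 in MRPL12, -0.80 in MRPL54 and -0.78 in MRPL23 downward.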

How the results depend on the processing

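The median over the 78 genes kept its sign in each comparison under the alternatives run, except in WT2 against WT1 (-0.05 to 0.0059) and, with a library left out, ANKRD10-2 against ANKRD10-1 (lowest -0.0108). These alternatives were DESeq2, DESeq2's size factors, upper quartile normalization, no filter on low counts, a replicate block, all groups in 1 fit, pooled wild type controls, medians by chromosome and the trend with gene length and expression. With the trend removed the medians were 0.18 in KO1, 0.11 in KO2, 0.0586 with ANKRD10-1 and -0.19 for siANKRD10-2 against siANKRD10-1, and with upper quartile normalization the siANKRD10-2 median was -0.0937. The ANKRD10-1 count of 5 higher became 8 with DESeq2, 9 with upper quartile normalization, 9 with no filter on low counts and 3 with all groups in 1 fit. Most changes were small: asking also for an absolute log2 fold change of 0.5 left 7 higher and 0 lower in KO1, 4 and 0 in KO2, 0 and 0 with ANKRD10-1, 1 and 0 with ANKRD10-2, 0 and 0 with siANKRD10-1, 1 and 5 with siANKRD10-2, 0 and 0 for ANKRD10-2 against ANKRD10-1, 0 and 13 for siANKRD10-2 against siANKRD10-1, and 1 and 4 for the difference between the knockouts, where more genes were then lower than higher. Over all genes the same threshold left 968 higher and 1690 lower of 17865 in KO1, and 1050 and 1589 of 18267 in KO2. It left 342 and 679 of 20177 with ANKRD10-2, and 1194 and 1165 of 18924 with siANKRD10-2. For siANKRD10-2 against siANKRD10-1 it left 1308 and 1168 of 18832, and for the difference between the knockouts 1082 and 1318 of 19189. The higher counts in KO2 and with ANKRD10-2 and the lower count with siANKRD10-2 lay near these shares. Without genes sharing over 20% of their exon bases, an alternative chosen after the data were seen, 1 gene was lower for ANKRD10-2 against ANKRD10-1. The causes were not tested.

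With each library omitted in turn there were 36 to 49 higher, 1 to 4 lower and a median of 0.23 to 0.29 for KO1, 27 to 34 higher, 2 to 3 lower and a median of 0.14 to 0.19 for KO2, 2 to 8 higher, 0 to 0 lower and a median of 0.0772 to 0.10 for ANKRD10-1. For the other comparisons there were 8 to 15 higher, 1 to 2 lower and a median of 0.10 to 0.15 for ANKRD10-2, 3 to 26 higher, 0 to 1 lower and a median of 0.11 to 0.18 for siANKRD10-1, 9 to 12 higher, 25 to 35 lower and a median of -0.20 to -0.083 for siANKRD10-2. For the direct contrasts there were 1 to 2 higher, 1 to 2 lower and a median of -0.0108 to 0.0432 for ANKRD10-2 against ANKRD10-1, 4 to 5 higher, 37 to 47 lower and a median of -0.29 to -0.23 for siANKRD10-2 against siANKRD10-1, 10 to 15 higher, 5 to 7 lower and a median of 0.0628 to 0.13 for the difference between the knockouts. The 3 lower calls in KO1 were 1 without WT1 replicate 2. The siANKRD10-1 count of 16 was 9 without siNC replicate 1, 3 without siNC replicate 2, 7, 26 and 6 without siANKRD10-1 replicates 1, 2 and 3. The ANKRD10-1 count of 5 was 2 without Vector replicate 1, 8 without Vector replicate 3, 3 without ANKRD10-1 replicate 1 and 2 without ANKRD10-1 replicate 2. In KO2 against WT2, leaving out a library gave log2 fold changes on both sides of 0 for MRPL23 -0.00506 to 0.11. In ANKRD10-1 overexpression against Vector, leaving out a library gave log2 fold changes on both sides of 0 for MRPS5 -0.0278 to 0.10 and MRPL9 -0.0208 to 0.0892 and MRPL42 -0.05 to 0.00218 and MRPS18C -0.0909 to 0.0242. In ANKRD10-2 overexpression against Vector, leaving out a library gave log2 fold changes on both sides of 0 for MRPL9 -0.0856 to 0.10. In siANKRD10-2 against siNC, leaving out a library gave log2 fold changes on both sides of 0 for MRPS18B -0.0302 to 0.0474 and MRPL9 -0.0491 to 0.00264 and MRPL36 -0.24 to 0.0828 and MRPL42 -0.0835 to 0.0135. Outside these, MRPL42 gave -0.0164 in KO2 against all 6 wild type libraries, and with upper quartile normalization MRPL9 gave 0.0209 and MRPL42 3.21e-05 with siANKRD10-2. None of these genes was called in that comparison.

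Deviations of same-numbered libraries from their group means correlated weakly (highest correlation 0.071). In KO2 against WT2 these correlations were 0.041, 0.047 and 0.046, above the highest with other numbers (-0.011, -0.016 and -0.021). In ANKRD10-1 against Vector they were -0.001, -0.011 and -0.01, below those with other numbers (0.003, 0.013 and 0.007). Whether the numbers pair the libraries was therefore not settled. With the replicate number as a block, 49 genes were higher and 3 lower in KO1, 37 and 2 in KO2, 5 and 0 with ANKRD10-1, 18 and 3 with ANKRD10-2, 23 and 1 with siANKRD10-1, 10 and 33 with siANKRD10-2, 42 lower and 5 higher for siANKRD10-2 against siANKRD10-1, and 14 and 5 for the difference between the knockouts. With 3 libraries a group, the median SE of a log2 fold change over the 78 genes was 0.0728 in KO1, so changes of that size could not be told from 0. Over all values of named genes, 733 kept their side of the threshold and their direction with a library left out and 81 were no longer called, and over the other alternatives 800 did and 23 were no longer called.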
